A study of Drosophila melanogaster with 2 samples.

Results

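The genes described here encode the subunits that make up the Myb-MuvB core of the fly dREAM complex, together with the associated tumour suppressor L(3)mbt. They were chosen as a list of 7 genes, Myb, mip120, mip130, mip40, lin-52, Caf1-55 and l(3)mbt, out of 13968 protein-coding genes on the chromosome arms. The measurement was ChIP-seq of E2f2 in whole Drosophila melanogaster embryos aged 0 to 24 h. All embryos came from the strain E2F2-GFP, transgenic flies with an insertion that targets E2f2 and expresses an E2f2-eGFP fusion, and anti-GFP antibody pulled down the fusion. Both samples, biological replicates 1 and 2, belong to the same group, so no condition was compared with another. Neither an input nor an untagged control was used here, and embryos of every stage in the collection window and all their cell types were mixed. The labels do not state the promoter that drives the fusion or whether untagged E2f2 is also present.

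The dREAM complex joins a repressive module, made of the transcription factor E2f2, its DNA-binding partner Dp and a retinoblastoma family protein, to the Myb-MuvB core. The core holds the DNA-binding protein Mip120, which recognises the CHR element of cell cycle promoters, the structural subunits Mip130, Mip40 and Lin-52, and the histone-binding protein Caf1-55. Myb is the DNA-binding subunit that turns on mitotic genes, and the remainder of the complex keeps many differentiation and E2F target genes silent in embryos and cultured cells. The comparison addressed here is whether the genes for these subunits themselves carried E2f2 peaks at their transcription start sites (TSSs).

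The stretches shown here hold the summits and motif matches that the results turn on, read from the Release 6 (dm6) genome of RefSeq. Capitals mark matches to 1 of 4 motifs, the 8-letter E2F site or its 6-letter core, the CHR, the 5-letter Myb site and the core of the DRE, the element bound by the promoter factor DREF. The first 4 stretches lie directly upstream of the TSS of Myb (chrX:15857824-15857963, minus strand), mip130 (chrX:1908122-1908238, plus strand), Caf1-55 (chr3R:15225330-15225575, plus strand) and l(3)mbt (chr3R:27273274-27273423, minus strand). The lin-52 stretch surrounds a summit between lin-52 and its divergent neighbour (chrX:5755362-5755542, minus strand). The last stretch is a short piece of the 5′ UTR of Caf1-55 that holds a pair of full E2F sites (chr3R:15225802-15225829, plus strand).
Myb: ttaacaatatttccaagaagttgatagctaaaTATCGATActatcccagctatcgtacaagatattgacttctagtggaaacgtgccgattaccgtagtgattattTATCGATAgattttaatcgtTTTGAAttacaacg
mip130: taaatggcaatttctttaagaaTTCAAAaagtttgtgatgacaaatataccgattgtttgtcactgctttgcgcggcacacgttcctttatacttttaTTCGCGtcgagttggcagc
Caf1-55 upstream: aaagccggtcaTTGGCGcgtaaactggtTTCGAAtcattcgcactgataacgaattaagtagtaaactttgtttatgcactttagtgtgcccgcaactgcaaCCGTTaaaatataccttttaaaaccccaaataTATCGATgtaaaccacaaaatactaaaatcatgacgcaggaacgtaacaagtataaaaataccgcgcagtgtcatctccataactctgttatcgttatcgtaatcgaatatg
l(3)mbt: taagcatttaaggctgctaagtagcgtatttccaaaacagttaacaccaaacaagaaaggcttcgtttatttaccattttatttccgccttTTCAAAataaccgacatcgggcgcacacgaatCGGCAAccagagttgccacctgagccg
lin-52: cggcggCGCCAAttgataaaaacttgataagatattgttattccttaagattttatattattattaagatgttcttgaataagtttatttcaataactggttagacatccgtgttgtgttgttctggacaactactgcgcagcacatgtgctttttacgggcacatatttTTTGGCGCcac
Caf1-55 5′ UTR: TTTGCCGCttcggcttttgtTTTGGCGC

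E2f2 peaks stood at the TSSs of most of these genes, but the strength and the repeatability of the peaks differed widely from gene to gene. A gene was called bound where a thresholded summit fell no more than 500 bp from one of its TSSs. In the conservative list that the authors made from both replicates, which has 7312 entries, 5 of the 7 genes were bound: mip120, mip130, mip40, Caf1-55 and l(3)mbt. The same rule called 5680 of the 13968 protein-coding genes bound, which is 40.7%. Myb and lin-52 had no summit of the conservative list in their windows. The authors' larger list of 8752 entries added Myb and gave 6 of 7, against 44.1% of all genes. With 7 genes and no test, these counts describe the list and show nothing particular to it.

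The separate lists of the replicates named different subsets. Replicate 1, with 5002 entries, had a summit at 6 of the 7 genes, all but Myb, against 33.5% of all genes. Replicate 2, with 8250 entries, had one at 4 of the 7, against 42.1% of all genes. The 4 genes bound in both replicates were mip120, mip40, Caf1-55 and l(3)mbt, and 32.2% of all genes were bound in both. The other 2 genes of replicate 1, mip130 and lin-52, were bound in replicate 1 and not in replicate 2, a pattern found in 1.3% of all genes. Myb was in the larger list and not in the conservative one, as were 4.5% of all genes.

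The signal value of a peak is the number that the authors' peak caller gave it, and its unit is not stated in the labels or the files. It is therefore read only within a list, by its value and by its rank, where rank 1 is the strongest entry. The 5 genes bound in the conservative list had best signal values from 132 to 1593, with a median of 443, and the median over all 5680 bound genes was 252. Of the 5, mip120 stood near the top of the list, mip40 and Caf1-55 stood above the median bound gene, and l(3)mbt and mip130 stood below it.

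**Figure D1:**
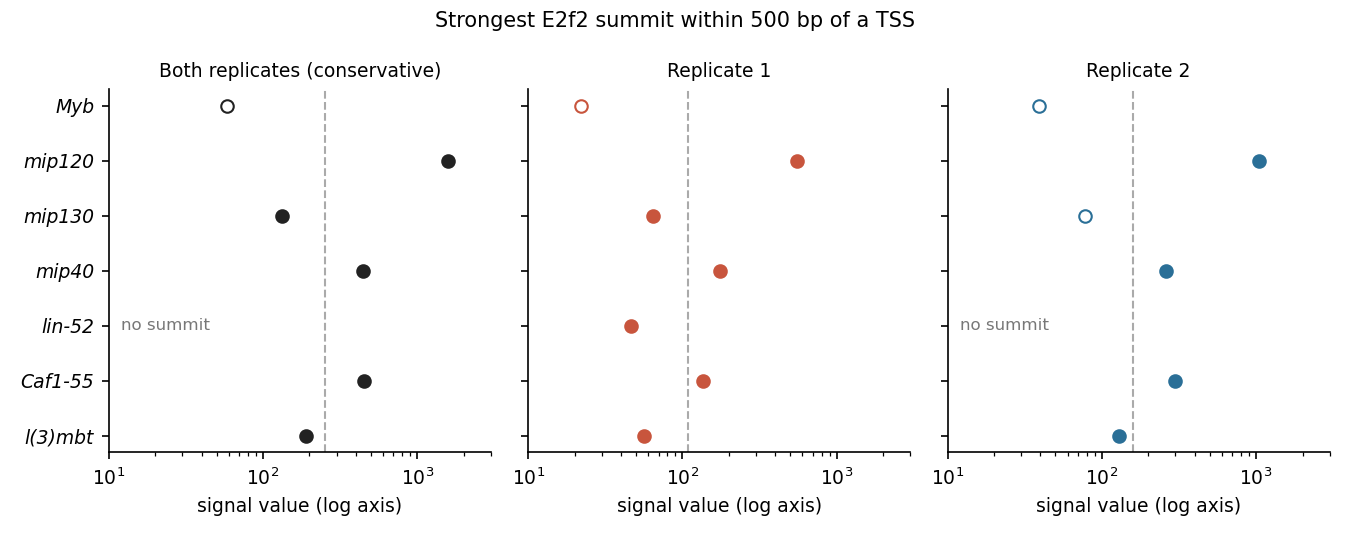
Signal value (log axis) of the strongest summit within 500 bp of a TSS of each gene in the conservative list made from both replicates and in the lists of replicates 1 and 2. Filled points passed the authors' threshold, open points stood only in the ranked list, "no summit" means that neither had one, and the dashed line is the median over all bound genes of that list; mip120 is the strongest of the 7 in each panel, and Myb is below the threshold in each.

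mip120 encodes the DNA-binding subunit of MuvB, the fly relative of LIN54 (FBgn0033846, chromosome arm 2R from 13506430 to 13513112, plus strand). Its 2 annotated transcripts start at 2 TSSs that lie 3188 bp apart, and E2f2 had thresholded summits at both. The stronger peak (13509324 to 13509832) lay at the downstream TSS, inside an intron of the longer transcript. Its summit was 57 bp upstream of that TSS with a signal value of 1593 in the conservative list, 557 in replicate 1 and 1049 in replicate 2. These were ranks 205 of 7312, 258 of 5002 and 173 of 8250, so the peak was near the top of every list. The summit lay 57 bp upstream of the TSS in replicate 1 and 51 bp upstream in replicate 2.

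At the upstream TSS of mip120 the peak was weaker in every list. Its signal value was 220 in the conservative list, at a summit 109 bp upstream of the TSS. In replicate 1 it was 112 at 65 bp upstream, and in replicate 2 it was 167 at 128 bp upstream. Both replicates placed the stronger peak at the internal TSS. Among all bound genes, 363 of 5680 (6.39%) likewise had their strongest summit more than 500 bp from the 5′ end of the gene. One further entry of the conservative list, with a signal value of 136, lay 536 bp downstream of the upstream TSS and so outside the window.

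mip40, the gene of the fly LIN37 subunit (FBgn0034430, chromosome arm 2R from 19291105 to 19292196, minus strand), had its summit almost on its TSS. The peak (19291989 to 19292395) had its summit 7 bp downstream of the TSS, in the 5′ UTR, with a signal value of 443 and rank 1621. The replicates gave 176 at 3 bp and 259 at 10 bp downstream. The position of the summit thus shifted by 7 bp between the replicates. Tab2, on the other strand, starts 333 bp upstream, and both replicates had a second, weaker summit between the genes that was nearer to Tab2. Its signal value was 12.8 in replicate 1 and 106 in replicate 2. The larger list had this second summit, with a signal value of 111, but the conservative list did not.

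Caf1-55 encodes the histone-binding WD40 protein that MuvB shares with chromatin assembly, remodelling and Polycomb complexes (FBgn0263979, chromosome arm 3R from 15225576 to 15227564, plus strand). The peak of the conservative list (15225159 to 15225663) had its summit 114 bp upstream of the TSS, with a signal value of 449 and rank 1602. In replicate 2 the summit was at almost the same place, 116 bp upstream, with a signal value of 296 and rank 1610 of 8250. Replicate 1 differed, since it had a pair of narrow summits on either side of that place. One had a signal value of 136 at 198 bp upstream, at rank 1755 of 5002, and the other had 56.6 at 4 bp downstream. The strongest summit was thus in the top 21.9% of the conservative list, the top 19.5% of replicate 2 and the top 35.1% of replicate 1. The lists differ in length, so no difference in strength is read from these percentages. CG31344 starts 247 bp upstream on the other strand, and the stronger summit of replicate 1 was 49 bp from that start and so nearer to CG31344. A second entry of the conservative list, with a signal value of 46.4 at rank 6862, lay 90 bp downstream in the 5′ UTR. It was not in the larger list, and the entry of replicate 2 there, 84 bp downstream, did not pass the threshold.

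l(3)mbt encodes a chromatin protein with MBT repeats, and its loss causes brain tumours in fly larvae (FBgn0002441, chromosome arm 3R from 27266326 to 27273273, minus strand). The promoter peak (27273191 to 27273447) had its summit 54 bp upstream of the TSS with a signal value of 191 and rank 3350. The signal value was 56.5 at 46 bp upstream in replicate 1, at rank 3533 of 5002, and 129 at 35 bp upstream in replicate 2, at rank 3424 of 8250. That is the top 45.8% of the conservative list, the top 70.6% of replicate 1 and the top 41.5% of replicate 2. The peak was thus found at one place in both replicates, below the median bound gene of each list, which was 109 in replicate 1 and 158 in replicate 2. The conservative list also had a summit in an intron, 826 bp downstream of the TSS, with a signal value of 115. In replicate 2 a further summit with a signal value of 78.9 lay 345 bp upstream, nearer to the divergent gene CG5934, which starts 432 bp from l(3)mbt.

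mip130 encodes the fly relative of LIN9, a scaffold of the MuvB core (FBgn0023509, chromosome X from 1908239 to 1920318, plus strand). Its peak (1907876 to 1908385) was the weakest of the 5 genes bound in the conservative list, with a signal value of 132 and rank 4564. The summit lay 109 bp upstream of mip130 but only 9 bp from a TSS of Edem1, a gene on the other strand that has start sites on both sides of the mip130 start. The peak therefore cannot be assigned to mip130 alone. Replicate 1 had a thresholded summit with a signal value of 64.5, 125 bp upstream and 7 bp from a TSS of Edem1. In replicate 2 the strongest summit in the window had a signal value of 77.3 at 60 bp upstream, and it stood only in the ranked list.

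lin-52, the gene of the Lin-52 subunit (FBgn0029800, chromosome X from 5753390 to 5754958, minus strand), shared its upstream region with the divergent gene CG15771, which starts 616 bp away. The nearest summit of the conservative list, with a signal value of 357 and rank 1978, lay 509 bp upstream of lin-52, just outside the window of 500 bp and 107 bp from the TSS of CG15771. The bound or unbound call for lin-52 thus turned on 9 bp. A second summit, with a signal value of 144, lay 819 bp upstream. Replicate 2 had summits in the same places, with signal values of 268 at 524 bp and 99.1 at 795 bp upstream, and no entry at all within 500 bp of lin-52, even in its ranked list.

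Replicate 1 differed from replicate 2 at lin-52. It had a summit with a signal value of 46.2 at 67 bp downstream of the lin-52 TSS, in its 5′ UTR, at rank 4029 of 5002. Its stronger summit, with a signal value of 79.4, was 605 bp upstream of lin-52 and 11 bp from the TSS of CG15771. The entry inside the lin-52 window was thus weak and was seen in 1 of the 2 replicates.

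Myb encodes the only Myb transcription factor of the fly (FBgn0002914, chromosome X from 15854832 to 15857823, minus strand), and the annotation starts CG46440 at the same base. Its strongest summit, in a peak from 15857613 to 15858122, lay 44 bp upstream of the TSS. The signal value was 58.5. This entry was in the larger list, at rank 7902 of 8752, and not in the conservative list. In the ranked lists of the replicates the strongest summit had a signal value of 22.1 at 28 bp downstream in replicate 1 and 39.3 at 41 bp upstream in replicate 2. Neither passed the threshold of its own list. By signal value Myb thus had the weakest promoter entry of all 7 in the rankings of replicate 1 and of the larger list. In the ranking of the larger list the entry of lin-52 was little stronger, at 63.0. That lin-52 entry did not pass the threshold, whereas the Myb entry did. In the rankings of replicate 2 and of the conservative list Myb had the weakest entry of the 6 genes with one.

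**Figure D2:**
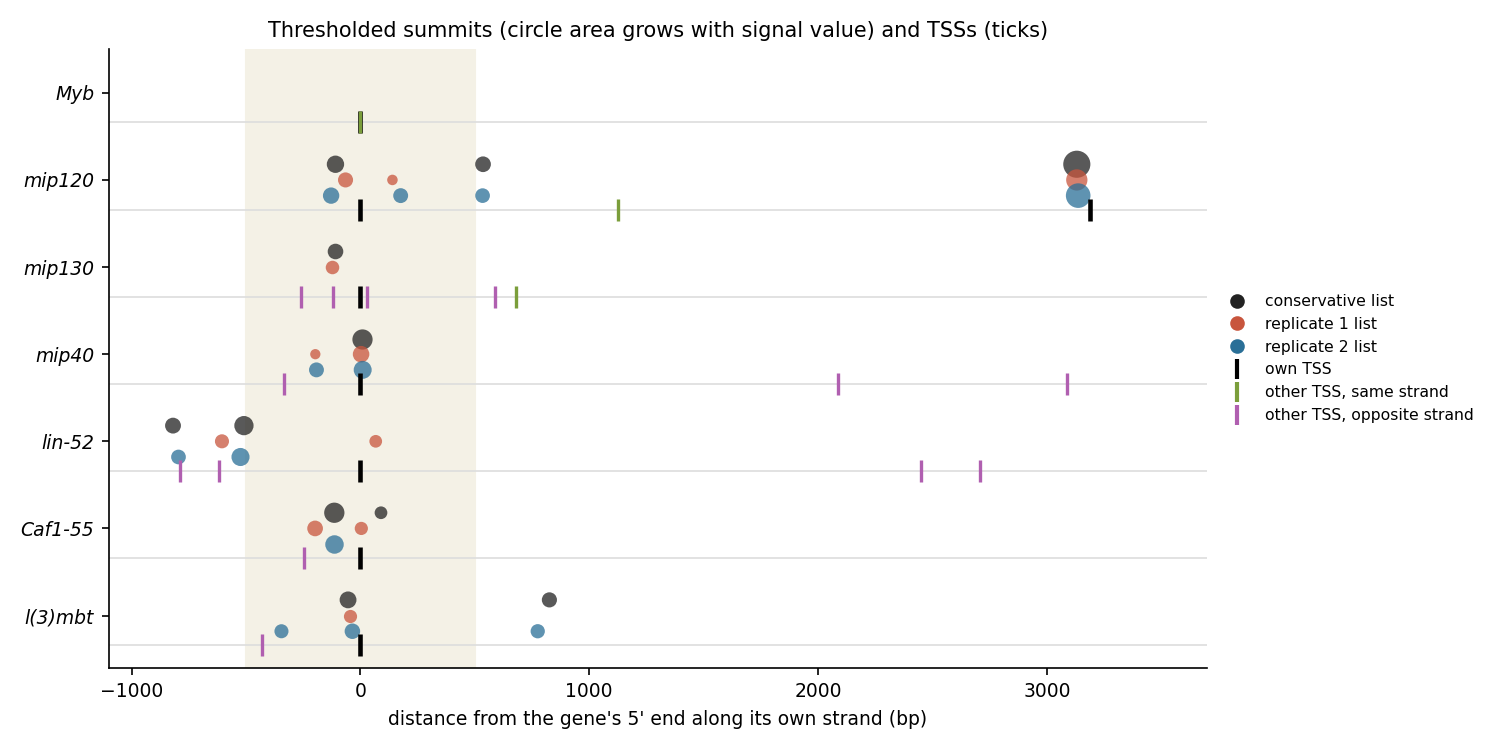
Position of each thresholded summit relative to the 5′ end of its gene (bp along the gene's strand), with circles for the conservative list and the lists of replicates 1 and 2, and ticks for the TSSs of the gene and of its neighbours; the shading spans 500 bp on each side of the 5′ end, and circle area grows with the signal value but is not proportional to it. The largest circles stand at the internal TSS of mip120, those of lin-52 lie mostly to the left of the shading near the start of CG15771, and Myb has none.

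The order of the genes by signal value was the same in both replicates at its top and differed in its middle. Replicate 1 placed mip120 first, then mip40, Caf1-55, mip130, l(3)mbt and lin-52. Replicate 2 placed mip120 first, then Caf1-55, mip40 and l(3)mbt, with mip130 and Myb below the threshold. mip40 and Caf1-55 changed places between the replicates, and so did mip130 and l(3)mbt, so the order within each of these pairs is not settled by the data. In the conservative list Caf1-55 and mip40, at 449 and 443, took places 1762 and 1781 among the 5680 bound genes. mip120 took place 195, l(3)mbt 3478 and mip130 4486.

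**Figure D3:**
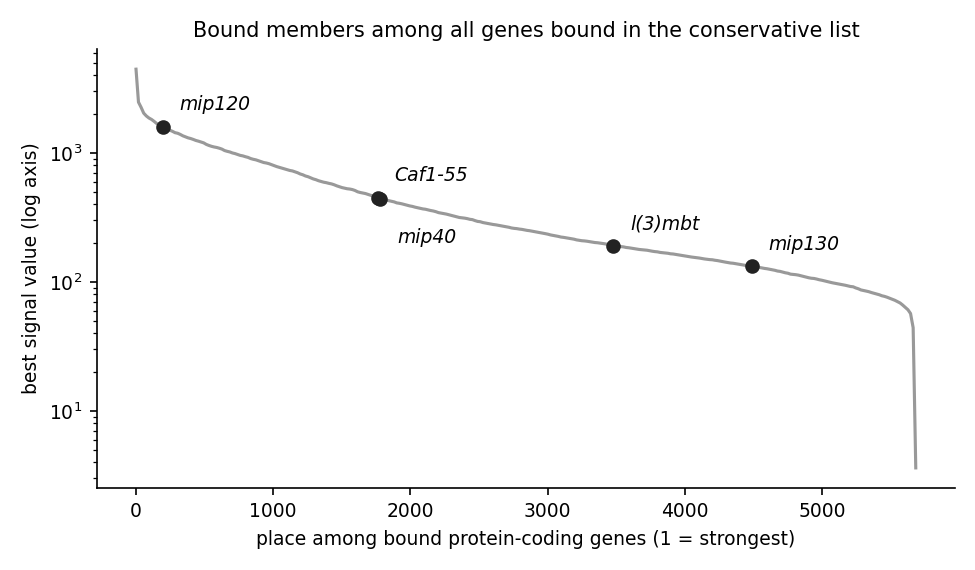
Best signal value (log axis) of the 5680 protein-coding genes bound in the conservative list against their place in the order of signal values (grey line), with the 5 bound genes of the complex as points. mip120 lies near the strong end at place 195, Caf1-55 and mip40 nearly coincide, and l(3)mbt and mip130 lie in the weaker part of the curve.

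The global IDR, or irreproducible discovery rate, is the expected share of irreproducible peaks among those ranked as high or higher. A high −log10 of the IDR marks a peak that was repeatable in the comparison behind its ranking. For the ranking of a single replicate that comparison is not described here, so its values are not read as agreement between replicates 1 and 2. The authors' thresholded lists held only entries at 2 or above on this scale, which is an IDR of 0.01 or lower. The downstream summit of mip120 had the value 5, the top of the scale, in all 4 rankings. In the ranking of the conservative list mip40 had 4.40, Caf1-55 had 4.35, l(3)mbt had 3.44 and mip130 had 2.97. The 4 genes bound in both replicates had the highest values in this ranking. It was made from the same replicates, so this is no separate support. For mip130 the value was 3.21 in replicate 1 and 1.13 in replicate 2. For Myb it was 1.90 in the ranking of the conservative list and 2.04 in that of the larger list, on either side of the threshold, with 1.06 in replicate 1 and 0.271 in replicate 2. The lin-52 summit of replicate 1 had 2.68, and the ranking of the larger list had an entry 131 bp upstream of lin-52 with a signal value of 63.0 and a −log10 IDR of 0.0642.

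**Figure D4:**
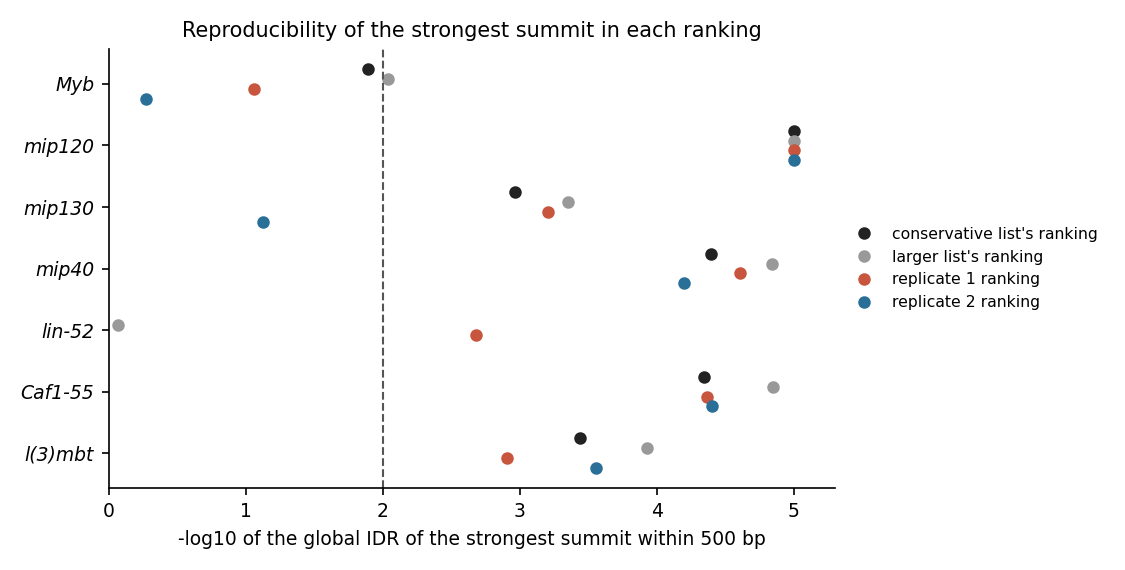
The −log10 of the global IDR of the strongest summit within 500 bp of a TSS of each gene, in the rankings behind the conservative list, the larger list and the lists of replicates 1 and 2. The dashed line is the threshold of 2; mip120 sits at 5 in every ranking, mip40, Caf1-55 and l(3)mbt lie to the right of the line in every ranking, and mip130, Myb and lin-52 have points on both sides.

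Motif matches were counted on both strands around the 7 summits of the conservative list at the 5 bound genes. These include the weaker Caf1-55 summit, which was not in the larger list. The full E2F site was searched as TTTGGCGC, as TTTCCCGC, as TTTGCCGC and as TTTCGCGC, and none lay wholly within 100 bp of any of the 7 summits, against 7.92% of all 7312 summits of the list. The 6-letter E2F core (TTGGCG, or TTCCCG, or TTGCCG, or TTCGCG) is contained in the full site. It lay near 4 of the 7, at mip130, mip40, Caf1-55 and l(3)mbt, against 33.5% of all summits. At Caf1-55 it lay near the weaker summit only. The CHR (TTTGAA or TTCGAA), the element of Mip120, lay near 4 of the 7, against 45.7% of all summits. The Myb site AACGG lay near 6 of the 7, against 24.5%, and the mip130 summit was the only one without it. The DRE core ATCGATA lay near 1, the stronger Caf1-55 summit, against 19.2%. These matches are descriptions of few summits, and 4 of the 5 genes have a divergent neighbour that starts within 500 bp of them.

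Single matches lay close to some summits, as the capitals in the sequences show. The summit of l(3)mbt in the conservative list lay on the end base of a CHR (TTCAAA on the strand of the gene, 54 to 59 bp upstream of its TSS), with an E2F core as CGGCAA at 22 to 27 bp upstream. The summits of replicates 1 and 2, at 46 and 35 bp upstream, lay near this CHR but outside it. At Caf1-55 the DRE core began 2 bp from the stronger summit of the conservative list, and the Myb site, written CCGTT, ended 26 bp from it. Replicate 1 had no summit at that place, since its summits lay 198 bp upstream and 4 bp downstream of the TSS. The mip130 summit had a CHR 14 bp away, in the stretch between the TSSs of mip130 and Edem1. At the stronger mip120 summit a Myb site lay 16 bp away, and the CHR matches there lay more than 100 bp away.

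Myb itself, bound only in the larger list, had the DRE palindrome TATCGATA on both sides of its summit, 10 and 57 bp away, which is 27 to 34 and 101 to 108 bp upstream of its TSS. A CHR lay 30 bp from that summit, 9 to 14 bp upstream of the TSS, and a Myb site lay 57 bp from the summit. In promoters of 300 bases, from 250 before to 50 after the 5′ end, the DRE core was found at 3 of the 7 genes, Myb, lin-52 and Caf1-55, against 18.2% of all promoters. The E2F core was found at 6 of 7 (5306 of 13968 promoters), the CHR at 6 of 7 (48.1% of all promoters) and the Myb site at 5 of 7 (33.8%). The full E2F site was found at none of the 7, against 6.41%. The GC content of these promoters ran from 29% at mip40 and 31% at Myb to 39.7% at Caf1-55 and 40% at mip130, and the quartiles over all promoters were 33.3% and 44.3%.

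Farther from the summits, 2 of the 7 genes held a full E2F site within 500 bp of a TSS, as did 2985 of 13968 genes (21.4%); this window was chosen after the motif counts were seen. In Caf1-55 the pair TTTGCCGC and TTTGGCGC lay in the 5′ UTR, at 226 to 233 and 246 to 253 bp downstream of the TSS, 136 and 156 bp from the weaker summit. At lin-52 the site TTTGGCGC lay 407 to 414 bp upstream of its TSS and began 95 bp from the summit near CG15771, so it reached past the window of 100 bp.

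**Figure D5:**
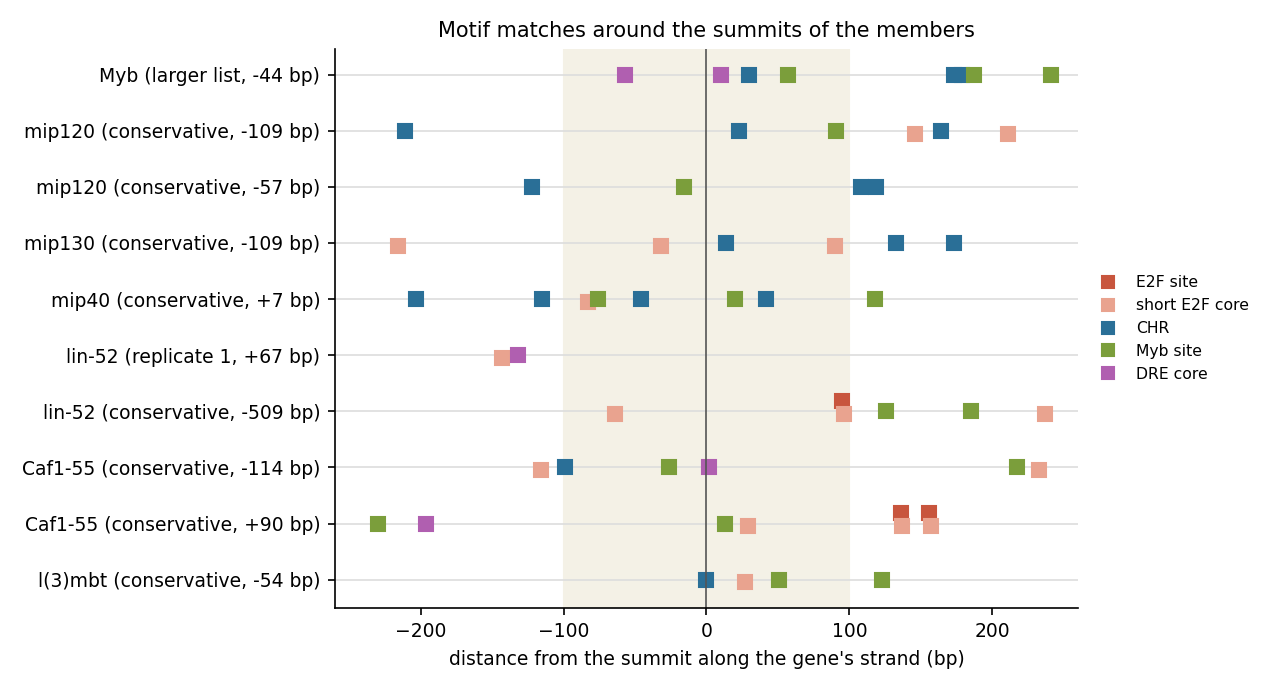
Distance (bp along the gene's strand) of each motif match from the summits of the 7 genes, with the list and the distance of the summit from the nearest TSS of the gene in the row name; squares stand at the end of a match that is nearer to the summit, and the shading spans 100 bp on each side. The CHR of l(3)mbt and the DRE core of Caf1-55 sit at summits of the conservative list, the DRE cores of Myb flank its summit, and full E2F sites appear only outside the shading or across its edge.

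The genes of the proteins that work with these subunits gave a second set of values. Of all genes, 40.7% were bound in the conservative list and 32.2% in both replicates. All 5 genes of the E2F and RB family were bound in the conservative list and in both replicates, with a median best signal value of 820 over the bound genes, led by Rbf at 991 (rank 681 of 7312) and E2f2 at 968 (rank 706). Every one of these 5 had a higher signal value than mip40, Caf1-55, mip130 and l(3)mbt in the conservative list and in each replicate where those genes were bound. Of 12 mitotic genes listed as textbook targets of Myb and MuvB, 11 were bound in the conservative list and the same number in both replicates. The bound genes had a median of 980, led by CycA at 2871 (rank 13 of 7312) and CycB3 at 2264 (rank 44). Whether Myb and MuvB control each of the 12 was not tested. The gene without a summit was stg, the phosphatase that starts mitosis. Of 12 genes for subunits of other complexes that hold Caf1-55, 11 were bound in the conservative list and 10 in both replicates, with a median of 368, led by the Polycomb gene esc at 2044 and the remodelling factor gene E(bx) at 1080, and MTA1-like was not bound.

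The partners of L(3)mbt in its corepressor complex, HDAC1, Lint-1 and CoRest, were all bound in the conservative list, with values of 74.0, 76.3 and 194. Only CoRest was bound in both replicates. In the testis the fly has a related complex with some subunits of its own. Of 7 genes of that complex, achi and vis, a neighbouring pair of duplicated homeobox genes whose reads may be hard to tell apart, were bound, at 586 and 365. The relatives of core subunits, aly for mip130, tomb for mip120 and wuc for lin-52, had no summit of the conservative list, nor did topi and comr. tomb had a summit in replicate 1 with a signal value of 51.0, and aly and comr had no entry in the ranking of the conservative list or in those of the replicates. These further lists, too, were set beside the shares of all genes, 40.7% in the conservative list and 32.2% in both replicates, without a test. HDAC1 and the unbound genes were named after their values were seen.

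Genes with the most similar pattern were sought among 8349 genes with a summit in the ranking of the conservative list and in those of both replicates, by the distance between the percentiles of their best summits. For 5 of the 6 genes that could be placed, the closest gene was a neighbour with the same summit in its window, at a distance of 0: CG46440 for Myb, Edem1 for mip130, Tab2 for mip40, CG31344 for Caf1-55 and CG5934 for l(3)mbt. For mip120, the closest were Mnn1 and Sulf1, at distances of 0.0186 and 0.022 percentage points. The next closest were CG17672 for Myb, Galk for mip130, pen-2 for mip40, Mvl for Caf1-55 and CG10555 for l(3)mbt, at 0.048 to 0.261 percentage points. lin-52 had no summit in 2 of the 3 rankings and was not placed.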

How the data were processed

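The samples were 2 biological replicates of 1 group, and chromatin was sonicated to 200 to 800 bp, per the labels. The authors deposited ranked and thresholded peak lists on dm6: 1 of each per replicate and 2 of each made from both replicates. Neither read depth nor the peak caller is given in the sources used here. The signal of each peak is the authors' value in the deposited lists. The deposited ranked lists also give the −log10 of the global IDR, and every thresholded entry had at least 2 there. The 16 unnamed per-replicate columns of the 2 ranked lists of the series were not used.

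Summits were column 2 plus column 10; the offset was never 0 and equalled the width in 29 of 329513 entries, so it was read as counted from 1. TSSs and gene models came from the Ensembl annotation of Release 6 and sequence from the RefSeq copy, and every peak lay within its chromosome lengths. Promoters of 300 bases were cut from this genome. Where features overlapped, a summit was called UTR or coding exon before intron. Of the genes in the further lists, 39 of 39 matched, by symbol or RefSeq synonym. Python 3.11.15, pandas 2.3.3, numpy 2.4.6 and matplotlib 3.10.9 were used. The assignment of summits to genes was tested on simulated data.

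The genes and lists were chosen with earlier results of these data known. Named genes were the 7 genes, the owners of the nearest and divergent TSSs, the 2 bound genes of highest signal value of each further list and the 2 genes closest in percentile. HDAC1 and the unbound stg, MTA1-like, aly, tomb, wuc, topi and comr fall outside this rule and were named after their values were seen. No group was compared, so no test was run. Alternatives were the larger list, each replicate alone, the 1000 strongest peaks, peak midpoints, windows of 250 and 1000 bp, 5′ ends only, the nearest TSS only, an overlap of at least 1 bp between peak and TSS, and motif flanks of 50 and 250 bp. The search for E2F sites within 500 bp of a TSS was added after seeing the data.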

Additional observations from a re-analysis of the deposited data

How the results depend on the processing

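The count of 5 bound genes stayed between 4 and 6 in 9 of 10 alternatives. In these 9 the count over all genes ran from 4412, with the nearest TSS only, to 6182, with the window of 1000 bp. It was 5009 with the window of 250 bp and 4629 where the peak had to overlap the TSS. With only the 1000 strongest peaks of the conservative list it fell to 1, mip120, and the count over all genes fell from 5680 to 1092. In the list of one replicate in place of the conservative list, the count was 4 to 6 of the 7 genes and 4680 to 5886 of all genes. Of the single genes, mip120 was bound in all 10 alternatives, and mip40, Caf1-55 and l(3)mbt in 9. mip130 was bound in 7, and was lost in replicate 2 alone, among the 1000 strongest peaks and when each summit went only to its nearest TSS, which is Edem1. For lin-52 the number was 2, the list of replicate 1 and the window of 1000 bp, and for Myb it was 1, the larger list. A flank of 250 bp brought full E2F sites near a summit of 1 gene, Caf1-55, from 0, and only at its weaker summit. With replicate 2 left out, the place of the strongest summit within its list went from the top 2.80% to the top 5.16% for mip120. It went from 22.2% to 28.9% for mip40 and from 21.9% to 35.1% for Caf1-55. For l(3)mbt it went from 45.8% to 70.6%, and for mip130 from 62.4% to 64.3%. In the larger list mip130 stood at 53.1%. The lists differ in length, so no change is read from these ranks. No paired analysis was possible because the samples form a single group. With 2 replicates, no input sample and unknown read depth, a missing summit says only that no entry passed the threshold.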
